A study of Mus musculus with 15 samples.

Results

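RNA of Kupffer cells from ob/ob mice was compared with that of wild type mice at 9 weeks of age, in 3 ob/ob libraries, numbered 1, 3 and 4 in the labels, and 4 wild type libraries, numbered 1 to 4. These are 7 of the 15 libraries of the study, taken by their genotype and age labels, and 11501 of the 15897 loci in the table were tested, those that averaged 1 FPKM or more across the 7. The mice labelled ob/ob carry a mutation that leaves them without functional leptin, so they overeat, become obese and accumulate liver fat from a young age, and the other mice have the strain label C57BL/6J. No treatment, diet or sex is given in the labels used here, the source is named as liver macrophages, and neither the way the cells were isolated nor the number of mice behind a library is given. Whether the numbered replicates are separate mice is not said in the labels, and p-values here reflect only how far these libraries spread, which can be technical.

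Kupffer cells are the resident macrophages of the liver. They line the sinusoids, take up bacteria, dying blood cells and modified lipoproteins, and are marked in the mouse by Clec4f, Timd4, Vsig4 and Cd5l. When the liver fills with fat, monocytes enter through the receptor Ccr2 and can become macrophages that hold little Clec4f or Timd4, and macrophages laden with lipid in several tissues carry a shared set of genes, Trem2, Gpnmb, Cd9 and Spp1 among them, that is known as the lipid-associated program.

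The unit of the table is FPKM, fragments scaled by transcript length and library total, and differences were tested by limma on log2(FPKM + 1), a scale that understates the change of low genes. A log2 change is ob/ob minus wild type, "adjusted p" is limma's Benjamini-Hochberg adjusted value over all 11501 loci, and a locus rose or fell where that value was below 0.05. Where a gene is given as values before and after "against", these are FPKM in ob/ob libraries 1, 3 and 4 and then in wild type libraries 1, 2, 3 and 4. Many of the genes described were named by a rule that required genotypes without overlap. For these the lack of overlap is a condition of choice and not a result. Of all loci tested 7.9% passed, 5.12% rising and 2.78% falling in ob/ob, and the median log2 change was -0.057. Rises made up 64.8% of the 909 calls, and 78.4% of the 827 calls made after median-ratio scaling.

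The Kupffer cell label held in both genotypes. Clec4f, a lectin confined to Kupffer cells in the mouse liver, stood at 2015, 2913 and 2165 FPKM against 3226, 2723, 2947 and 3393 FPKM, and Cd5l, a secreted scavenger protein, at 3095, 3875 and 2961 FPKM against 4358, 2669, 2961 and 3311 FPKM. RNA typical of other cells was present as well and differed between the genotypes. The summed FPKM of the 36 hepatocyte markers ran from 5099 to 7952 in ob/ob and from 1681 to 1910 in wild type libraries, and 27 of 35 tested members rose. Alb, the albumin gene, stood at 3500.0, 3174 and 2295 FPKM against 246, 237, 378 and 261 FPKM, so it ordered the ob/ob libraries 1, 3, 4 from high to low. The sums of the 14 neutrophil markers found were 183 to 470 against 100.001 to 172 with 7 of 13 higher, those of the 9 erythroid markers 287 to 506 against 36.7 to 95.9 with 5 of 6 higher, and those of the 16 B and plasma cell markers 195 to 271 against 103 to 146 with 5 of 14 higher. The 26 sinusoidal endothelial markers summed to 1619 to 3617 against 3911 to 7175, with 4 of 26 lower and the lowest sum in ob/ob library 3. The T and NK cell markers summed to 47.7 to 133 against 32.4 to 72.2 and the hepatic stellate markers to 173 to 217 against 202 to 213, and by limma 0 of 8 tested members passed in either list, with 2 and 3 below an unadjusted p of 0.05. In bulk RNA a change in the number of cells of a type and a change in RNA per cell cannot be told apart. No marker on these lists had a value of 0, because the deposited table holds no 0. ob/ob libraries 1 and 3 stood apart in a stretch of the X chromosome around Tlr7, where the log2 ratio of 14 genes to their average in wild type had a median of 0.77 and 1.06, while in library 4 it was 0.0054. Counts are therefore also given for a fit without ob/ob libraries 1 and 3 together, which takes the spread of the wild type group for the single ob/ob library that remains. That fit holds no spread between ob/ob libraries. Where library 4 was the highest ob/ob library, a rise is larger in that fit by construction, so passing there adds no support. The ob/ob libraries were sequenced on lane 8 and the wild type libraries on lane 7, so genotype and lane cannot be told apart.

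**Figure D1:**
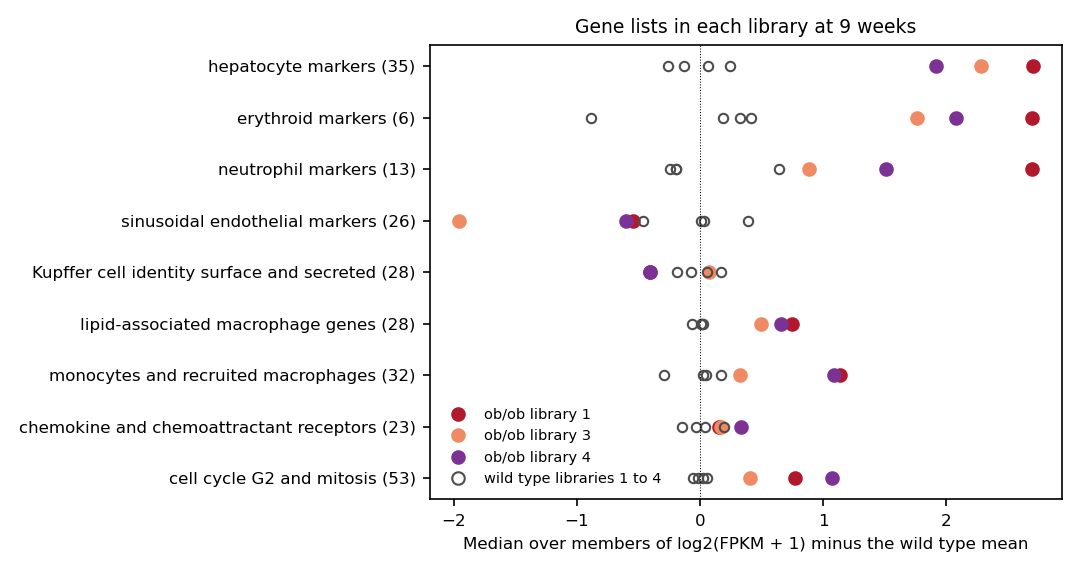
Median over the members of 9 gene lists of log2(FPKM + 1) minus the wild type mean, on the horizontal axis, with 1 row per list, the number of tested members in brackets, filled points for the 3 ob/ob libraries and open points for the 4 wild type libraries. The hepatocyte median was highest in ob/ob library 1 (2.71) and lowest in ob/ob library 4 (1.91), whereas the G2 and mitosis median was highest in ob/ob library 4 (1.07) and the endothelial median lowest in ob/ob library 3 (-1.96).

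Many lipid-associated macrophage genes rose in ob/ob. Of 28 tested members 14 rose (50%, against 5.12% of all loci), none fell and 14 did not pass, with a median log2 change of 0.60. The largest change was in Gpnmb, a glycoprotein of the lysosomal membrane (chr6:49036546-49070929, GRCm38), which stood at 38.98, 37.9 and 83.5 FPKM against 0.379, 0.844, 0.931 and 0.404 FPKM. Its log2 change was 4.97 ± 0.28 (SE, adjusted p = 0.000252), and library 4 was the highest of the 3 ob/ob libraries, all of which lay above every wild type library. Mmp12, the macrophage elastase (chr9:7344381-7369499), stood at 212, 180.1 and 289 FPKM against 7.71, 8.52, 9.38 and 6.03 FPKM, and its log2 change was 4.67 ± 0.19 (SE, adjusted p = 5.3e-05). Cd63, a tetraspanin of late endosomes and lysosomes, stood at 7.64, 7.04 and 17.6 FPKM against 0.917, 0.827, 1.96 and 0.931 FPKM, a log2 change of 2.36 ± 0.31 (SE, adjusted p = 0.00443). Atp6v0d2, a proton pump subunit of osteoclasts and some macrophages, was below 0.21 FPKM in the wild type libraries and rose by 2.06 ± 0.27 (SE, adjusted p = 0.00449), with 2.73, 2.69 and 7.25 FPKM against 0.202, 0.123, 0.14 and 0.189 FPKM. The rule that named these 4 required no overlap of genotypes and at least 50% of the change kept with Alb as covariate. In all 4 ob/ob library 4, where Alb was lowest, was the highest library, an order that this rule can favour.

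Surface proteins of the same list had smaller log2 changes. Anpep, the aminopeptidase CD13, stood at 19.7, 17.1 and 27.6 FPKM against 3.92, 4.16, 6.94 and 4.67 FPKM and rose by 1.92 ± 0.21 (SE, adjusted p = 0.00173). Itgax, the CD11c integrin chain, stood at 34.99, 29.3 and 50.4 FPKM against 7.197, 8.11, 15.7 and 10.7 FPKM and rose by 1.80 ± 0.27 (SE, adjusted p = 0.00846). Both are also present on dendritic cells, of whose 13 tested markers 1 rose and none fell. Cd9, another tetraspanin, stood at 102, 67.8 and 116 FPKM against 34.8, 50.4, 45.7 and 48.3 FPKM and rose by 1.05 ± 0.20 (SE, adjusted p = 0.0217). Trem2, the lipid receptor after which these cells are often named (chr17:48346401-48354147), stood at 39.2, 33.04 and 53.5 FPKM against 22.7, 24.99, 16.1 and 17.2 FPKM and rose by 1.01 ± 0.20 (SE, adjusted p = 0.0259). Library 4 was again the highest in ob/ob, so the Trem2 change was larger, at 1.38, without ob/ob libraries 1 and 3. Cd9 and Trem2 lost their calls in some of the fits with 1 library left out, with adjusted p up to 0.08004 for Cd9 (without ob/ob library 1) and 0.0735 for Trem2 (without ob/ob library 1).

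Secreted and lipid-handling members were more uneven. Spp1, osteopontin, read with the overlapping locus Gm42793, stood at 19.2, 21.6 and 30.1 FPKM against 6.85, 11.5, 6.51 and 9.23 FPKM and rose by 1.38 ± 0.22 (SE, adjusted p = 0.00963). Bile duct cells also make Spp1, and it was the single tested member of the cholangiocyte list, whose other 5 loci found averaged below 1 FPKM. Plin2, the coat protein of lipid droplets, stood at 162, 148 and 144 FPKM against 108, 100.1, 93.4 and 128 FPKM, in the order of Alb, and rose by 0.50 ± 0.12 (SE, adjusted p = 0.0424). Lpl, lipoprotein lipase, stood at 137, 118 and 112 FPKM against 88.1, 64.9, 80.1 and 74.6 FPKM, also in the order of Alb, and rose by 0.67 ± 0.12 (SE, adjusted p = 0.0181). Fabp5, a fatty acid carrier of lipid-laden macrophages, did not pass, with 7.66, 4.23 and 12.7 FPKM against 3.51, 7.11, 4.08 and 5.42 FPKM and a log2 change of 0.54 ± 0.33 (SE, adjusted p = 0.334), and its genotypes overlapped. Cd36, a receptor for oxidized lipoprotein and fatty acids, stood at 437, 403 and 403 FPKM against 259, 357, 286 and 319 FPKM, a log2 change of 0.45 ± 0.12 (SE, adjusted p = 0.0618), which did not pass although the genotypes did not overlap. Plin2 and Lpl lost their calls in some of the fits with 1 library left out, with adjusted p up to 0.1197 for Plin2 (without ob/ob library 1) and 0.0643 for Lpl (without ob/ob library 1).

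Within ob/ob the members that rose did not share the order of Alb. Library 4 was the highest ob/ob library in 10 of the 14 members that rose, and the order 1, 3, 4 of Alb was found in 3 of them. Over all 589 loci that rose these shares were 32.1% with library 4 highest and 34.5% in the order of Alb, and over all loci tested 38.9% and 12.2%. The count of members that rose lay between 10 and 15 with any 1 library left out and was 12 without ob/ob libraries 1 and 3 together. With log2 Alb as a covariate limma called 0 of 11501 loci, with 342 below an unadjusted p of 0.05. Alb and genotype moved together in these libraries, and the median SE of a change grew from 0.116 to 0.745. The change of Gpnmb was then 6.80 ± 1.86 and that of Mmp12 5.18 ± 1.30 (SE).

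**Figure D2:**
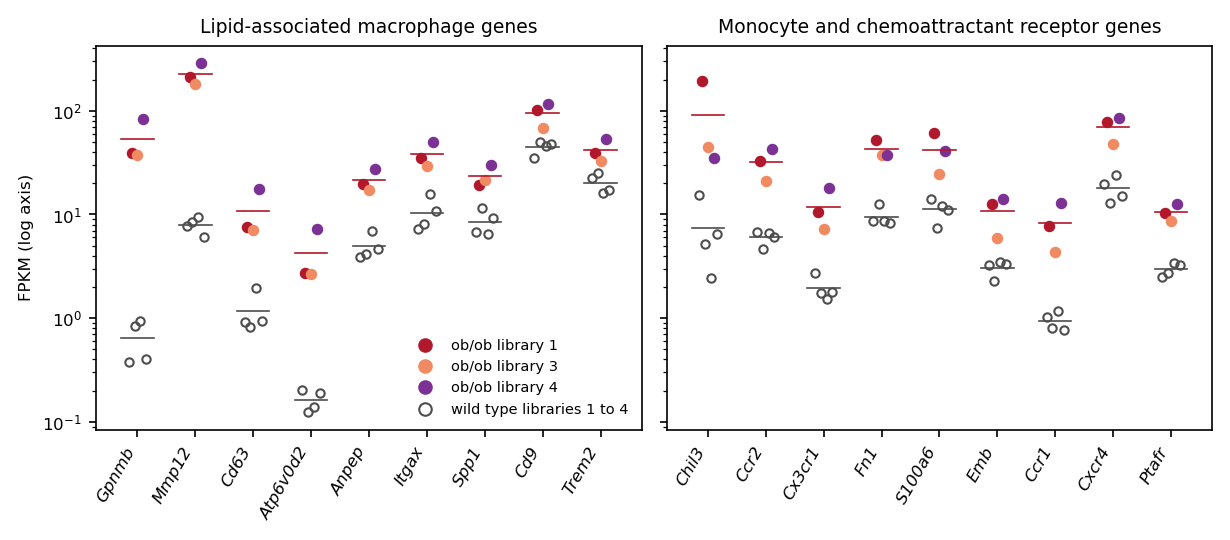
FPKM on a log axis in each library for 9 lipid-associated macrophage genes (left) and 9 monocyte and chemoattractant receptor genes (right), with filled points for ob/ob libraries 1, 3 and 4, open points for wild type libraries 1 to 4 and a line at the mean of each genotype. Only genes that passed and whose genotypes did not overlap are shown, so the separation of the points is not a result. Members that did not pass, such as Fabp5 and Ly6c2, are left out. Gpnmb spans 37.9 to 83.5 FPKM in ob/ob against 0.379 to 0.931 FPKM in wild type.

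Genes of monocytes and of macrophages recently derived from them rose next to these. Of 32 tested members 13 rose (40.6%, against 5.12% of all loci), none fell and 19 did not pass, with a median log2 change of 0.78. Ccr2, the receptor that draws monocytes into tissue (chr9:124101950-124113557), stood at 32.8, 21.1 and 42.5 FPKM against 6.85, 4.67, 6.66 and 6.09 FPKM and rose by 2.19 ± 0.23 (SE, adjusted p = 0.00141). Cx3cr1, the fractalkine receptor of patrolling monocytes and many tissue macrophages, stood at 10.5, 7.25 and 18.02 FPKM against 2.73, 1.76, 1.53 and 1.79 FPKM and rose by 2.06 ± 0.27 (SE, adjusted p = 0.00443). Both separated the genotypes, with ob/ob library 4 highest, as it was in 4 of the 13 members that rose, against 32.1% of all loci that rose. Chil3, a secreted chitinase-like protein of alternatively activated macrophages and neutrophils, varied most, with 193, 45.1 and 34.7 FPKM against 15.3, 5.19, 2.44 and 6.43 FPKM, and rose by 3.26 ± 0.68 (SE, adjusted p = 0.0298). ob/ob library 1 was far above libraries 3 and 4 in Chil3, and without ob/ob libraries 1 and 3 together the change was 2.33 (adjusted p = 0.198). Chil3 lost its call in 4 of the 7 fits with 1 library left out, with adjusted p up to 0.076 for Chil3 (without wild type library 2).

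Further members of the list did not share 1 order of the ob/ob libraries. Mgst1, a microsomal glutathione transferase abundant in hepatocytes, stood at 421, 348 and 222 FPKM against 67.4, 58.98, 74.7 and 66.8 FPKM and rose by 2.24 ± 0.20 (SE, adjusted p = 0.000786), in the order of Alb, and its change was -0.60 ± 0.88 (SE) with log2 Alb as a covariate. Fn1, fibronectin, a matrix protein of monocyte-derived macrophages and hepatocytes, stood at 52.7, 37.2 and 37.4 FPKM against 8.62, 12.6, 8.57 and 8.24 FPKM and rose by 2.05 ± 0.18 (SE, adjusted p = 0.0006396). S100a6, a calcium-binding protein, stood at 60.4, 24.4 and 40.7 FPKM against 14.2, 7.399, 12.2 and 11 FPKM and rose by 1.75 ± 0.31 (SE, adjusted p = 0.0162). Emb, the adhesion protein embigin, stood at 12.5, 5.91 and 14.04 FPKM against 3.24, 2.26, 3.46 and 3.29 FPKM and rose by 1.47 ± 0.27 (SE, adjusted p = 0.0171). In S100a6 and Emb ob/ob library 3 was the lowest ob/ob library. Ly6c2, the defining surface antigen of classical monocytes, did not pass, with 41.8, 20.1 and 32.6 FPKM against 18.3, 8.54, 18.1 and 20.6 FPKM and a log2 change of 0.91 ± 0.33 (SE, adjusted p = 0.133), and its genotypes overlapped. S100a6 and Emb lost their calls in some of the fits with 1 library left out, with adjusted p up to 0.0544 for S100a6 (without ob/ob library 4) and 0.0668 for Emb (without ob/ob library 1).

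The monocyte count depended on single libraries. Leaving out ob/ob library 1, 3 or 4 gave 6, 17 or 6, leaving out wild type library 3 gave 8, and without ob/ob libraries 1 and 3 together it was 11. The median of the list relative to the wild type mean was 1.14 in ob/ob library 1, 0.32 in library 3 and 1.09 in library 4. Neutrophil markers, some of which monocytes share, moved in the same direction, at 2.69, 0.88 and 1.51 in these libraries, and T and NK cell markers stood at 1.397, -0.070 and 0.91. Whether blood cells in the preparation had a part in the monocyte result was not tested.

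Receptors for chemokines and other chemoattractants rose with no fall. Of 23 tested members 5 rose (21.7%, against 5.12% of all loci) and 18 did not pass, with a median log2 change of 0.23. Besides Ccr2 and Cx3cr1 they were Ccr1, Cxcr4 and Ptafr. Ccr1, a receptor for inflammatory CC chemokines, stood at 7.69, 4.33 and 12.8 FPKM against 1.03, 0.795, 1.17 and 0.772 FPKM and rose by 2.16 ± 0.29 (SE, adjusted p = 0.00449). Cxcr4, the receptor that retains leukocytes at sources of its ligand, stood at 78.8, 47.6 and 84.8 FPKM against 19.5, 12.99, 24.2 and 15.2 FPKM and rose by 1.91 ± 0.26 (SE, adjusted p = 0.00476). Ptafr, the receptor for platelet-activating factor, stood at 10.4, 8.68 and 12.6 FPKM against 2.47, 2.71, 3.405 and 3.24 FPKM and rose by 1.54 ± 0.14 (SE, adjusted p = 0.000785). In all 5 receptors ob/ob library 4 was highest and library 3 lowest, an order found in 25.1% of all loci that rose. The count was 5 or more with any 1 library left out and 5 without ob/ob libraries 1 and 3 together.

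The ligands went both ways. Of 26 chemokine ligand genes 2 rose and 2 fell (7.69% each, against 5.12% and 2.78% of all loci). Ccl9, a CC chemokine of mouse macrophages and a ligand of Ccr1 (chr11:83572919-83578636), stood at 134, 122 and 145 FPKM against 32.01, 15.7, 25.6 and 24.8 FPKM and rose by 2.44 ± 0.21 (SE, adjusted p = 0.0006396). Ccl4, a CC chemokine of activated macrophages, stood at 408, 433 and 421 FPKM against 192, 153, 199 and 142 FPKM and rose by 1.30 ± 0.13 (SE, adjusted p = 0.00125). Cxcl13, the chemoattractant of B cells (chr5:95956951-95961068), stood at 59.4, 106 and 33.9 FPKM against 364, 179, 179.8 and 209 FPKM and fell by 1.88 ± 0.40 (SE, adjusted p = 0.0302). Ccl24, an eotaxin made by Kupffer cells, stood at 255, 319.6 and 249.8 FPKM against 341, 451, 489.6 and 489.8 FPKM and fell by 0.68 ± 0.16 (SE, adjusted p = 0.0405). The genotypes did not overlap in any of the 4. Neither fall passed without ob/ob library 1, ob/ob library 4 or wild type library 2, 3 or 4, where 0 ligands were lower. Cxcl13 and Ccl24 lost their calls in some of the fits with 1 library left out, with adjusted p up to 0.0887 for Cxcl13 (without ob/ob library 1) and 0.116 for Ccl24 (without ob/ob library 4).

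Genes of the cell cycle were higher in ob/ob, most of all those of G2 and mitosis by count. Of 53 tested G2 and mitosis genes 30 rose (56.6%, against 5.12% of all loci), 1 fell (1.89%, against 2.78%) and 22 did not pass. Their median log2 change was 0.78, with 52 of 53 changes above 0. Of 44 G1 and S phase genes 8 rose (18.2%), 1 fell (2.27%) and 35 did not pass, with a median of 0.43 and 38 changes above 0. The difference between these lists was not tested. Mki67, the proliferation antigen Ki-67 (chr7:135689784-135716361), stood at 6.15, 4.78 and 9.07 FPKM against 2.36, 1.99, 2.48 and 2.04 FPKM and rose by 1.22 ± 0.18 (SE, adjusted p = 0.00764). Ccnb1, the cyclin that drives entry into mitosis, stood at 2.85, 2.896 and 5.41 FPKM against 0.486, 0.976, 1.09 and 0.7101 FPKM and rose by 1.35 ± 0.21 (SE, adjusted p = 0.00942). Cdca3, which promotes degradation of mitotic inhibitors, stood at 13.9, 11.1 and 17.5 FPKM against 5.16, 4.84, 5.82 and 4.67 FPKM and rose by 1.29 ± 0.15 (SE, adjusted p = 0.00209). In each the lowest ob/ob library was above the highest wild type library.

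Birc5, survivin, a subunit of the chromosomal passenger complex, stood at 9.91, 6.37 and 13.6 FPKM against 3.44, 3.91, 3.51 and 3.06 FPKM and rose by 1.24 ± 0.21 (SE, adjusted p = 0.0142). Top2a, topoisomerase II, read with the overlapping small RNA locus Gm23451, stood at 7.72, 5.69 and 11.8 FPKM against 3.64, 2.74, 2.92 and 2.81 FPKM and rose by 1.18 ± 0.21 (SE, adjusted p = 0.01604). Ccna2, the cyclin of S phase and G2, stood at 10.9, 7.499 and 15.6 FPKM against 4.54, 4.297, 3.91 and 4.37 FPKM and rose by 1.17 ± 0.20 (SE, adjusted p = 0.0152). Cdk1, the kinase that Ccna2 and Ccnb1 activate, did not pass, with 21.7, 12.7 and 34.3 FPKM against 12.7, 14.3, 12.8 and 10.03 FPKM and a log2 change of 0.73 ± 0.29 (SE, adjusted p = 0.156), and ob/ob library 3 lay within the wild type range. Pttg1, securin, the inhibitor of sister chromatid separation, was the G2 and mitosis gene that fell, with 43.4, 50.7 and 51.9 FPKM against 58.97, 67.5, 67.9 and 66.6 FPKM and a log2 change of -0.42 ± 0.09 (SE, adjusted p = 0.0348). Birc5, Top2a, Ccna2 and Pttg1 lost their calls in some of the fits with 1 library left out, with adjusted p up to 0.0571 for Birc5 (without ob/ob library 1), 0.0555 for Top2a (without ob/ob library 1), 0.0565 for Ccna2 (without ob/ob library 1) and 0.0955 for Pttg1 (without ob/ob library 1).

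For DNA synthesis, Rrm2, the small subunit of ribonucleotide reductase, stood at 20.6, 11.8 and 21.1 FPKM against 5.86, 5.596, 6.13 and 4.76 FPKM and rose by 1.48 ± 0.20 (SE, adjusted p = 0.00443). Pole, the catalytic subunit of a replicative DNA polymerase, stood at 2.27, 1.57 and 2.33 FPKM against 0.906, 0.995, 0.9997 and 0.621 FPKM and rose by 0.70 ± 0.13 (SE, adjusted p = 0.0216). Ccnd1, cyclin D1 of early G1, ran the other way, with 26.7, 21.3 and 21.5 FPKM against 34.8, 51.5, 33.1 and 35.7 FPKM, and fell by 0.70 ± 0.16 (SE, adjusted p = 0.0423). Endothelial cells and hepatocytes also express Ccnd1. Pole and Ccnd1 lost their calls in some of the fits with 1 library left out, with adjusted p up to 0.0821 for Pole (without ob/ob library 1) and 0.116 for Ccnd1 (without ob/ob library 4).

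The proliferation genes were ordered by library in a way Alb was not. Library 4 was the highest ob/ob library in 28 of the 30 G2 and mitosis genes that rose, and none of the 30 followed the order of Alb. These shares were 32.1% and 34.5% of all loci that rose, and 38.9% and 12.2% of all loci tested. Genes that vary together are ranked over the same 3 libraries, so the 30 are not separate observations. The median of the list relative to the wild type mean was 0.77, 0.41 and 1.07 in ob/ob libraries 1, 3 and 4. In these libraries 48, 40 and 51 of the 53 genes were above every wild type library, against 2078, 2685 and 2931 of all 11501 loci. The number that passed was sensitive to the libraries used. Leaving out ob/ob library 1 gave 5, library 3 gave 40 and library 4 gave 16. Leaving out wild type library 1, 2, 3 or 4 gave 20, 10, 7 or 8, and leaving out ob/ob libraries 1 and 3 together gave 34. Of the G1 and S phase list 16 genes rose without ob/ob library 3, 5 without libraries 1 and 3 together and 4 or fewer with any other library left out. Which cells held these transcripts was not tested.

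**Figure D3:**
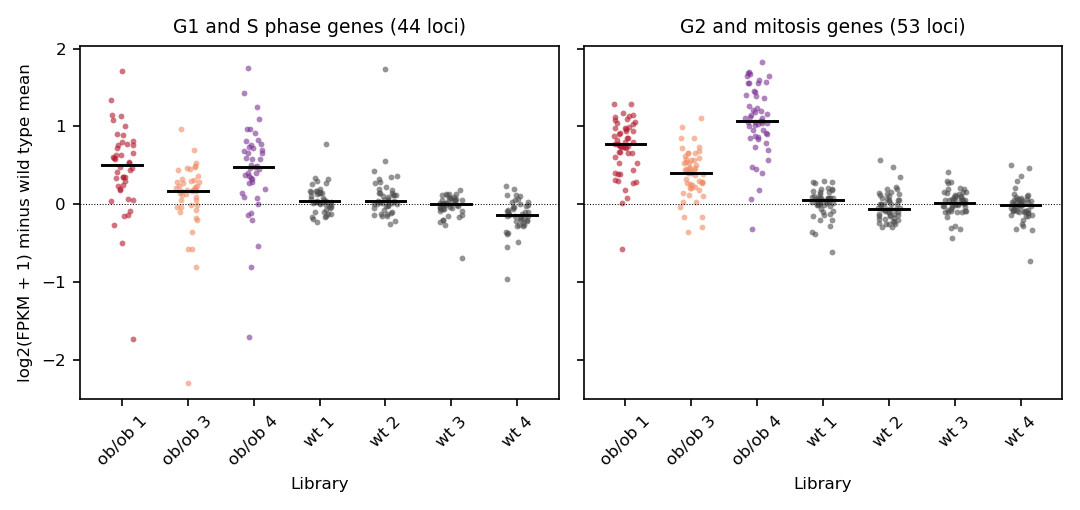
log2(FPKM + 1) minus the wild type mean, on the vertical axis, of each tested G1 and S phase gene (left, 44 loci) and each tested G2 and mitosis gene (right, 53 loci) in the 7 libraries, with 1 point per gene and a black line at the median. The G2 and mitosis medians are 0.77, 0.41 and 1.07 in ob/ob libraries 1, 3 and 4.

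Many mitotic genes share 2 promoter elements, the cell cycle homology region, to which the DREAM complex binds, and a CCAAT box, to which NF-Y binds. The stretches of 130 bases directly before the start of the 5 genes with the largest rise among those holding both are shown for that reason, from RefSeq on GRCm38.p6, 5′ to 3′ on the gene's strand, with TTTGAA and CCAAT in capitals on either strand (TTCAAA and ATTGG where they lie on the other strand).
Top2a (chr11:99024190-99024319, minus strand): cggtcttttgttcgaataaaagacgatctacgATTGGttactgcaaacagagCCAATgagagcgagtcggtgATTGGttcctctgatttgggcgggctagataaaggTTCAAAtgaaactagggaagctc
Prc1 (chr7:80294346-80294475, plus strand): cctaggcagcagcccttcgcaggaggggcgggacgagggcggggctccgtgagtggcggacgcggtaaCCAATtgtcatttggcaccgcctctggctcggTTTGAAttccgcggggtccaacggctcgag
Ube2c (chr2:164769799-164769928, plus strand): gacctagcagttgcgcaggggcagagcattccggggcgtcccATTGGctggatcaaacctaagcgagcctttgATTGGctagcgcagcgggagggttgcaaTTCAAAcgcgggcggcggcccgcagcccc
Kif11 (chr19:37376252-37376381, plus strand): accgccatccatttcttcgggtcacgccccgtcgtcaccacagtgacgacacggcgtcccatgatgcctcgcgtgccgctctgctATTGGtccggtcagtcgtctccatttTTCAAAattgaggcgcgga
Ckap2l (chr2:129297213-129297342, minus strand): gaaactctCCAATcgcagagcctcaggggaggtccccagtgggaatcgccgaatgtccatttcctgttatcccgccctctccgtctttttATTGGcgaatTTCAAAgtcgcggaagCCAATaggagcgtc
In these 5 the TTTGAA element began 23, 30, 29, 19 and 30 bases before the start, in the order shown.

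The genes behind the sequences have known parts in division. Prc1 bundles the microtubules of the central spindle and stood at 5.46, 5.15 and 9.09 FPKM against 3.21, 2.27, 1.53 and 2.95 FPKM, a log2 change of 1.11 ± 0.23 (SE, adjusted p = 0.0298). Ube2c is the ubiquitin-conjugating enzyme of the anaphase-promoting complex and stood at 19.2, 14.2 and 28.1 FPKM against 8.77, 7.32, 12.2 and 8.04 FPKM, a log2 change of 1.07 ± 0.24 (SE, adjusted p = 0.0369). Kif11 is the kinesin that separates the spindle poles and stood at 3.43, 2.36 and 4.84 FPKM against 1.36, 1.15, 1.21 and 1.22 FPKM, a log2 change of 0.99 ± 0.18 (SE, adjusted p = 0.0165). Ckap2l, a spindle protein, stood at 2.35, 1.79 and 3.87 FPKM against 1.07, 0.898, 1.12 and 0.996 FPKM, and like the other 3 it rose, with a log2 change of 0.82 ± 0.18 (SE, adjusted p = 0.03503). Prc1, Ube2c, Kif11 and Ckap2l lost their calls in some of the fits with 1 library left out, with adjusted p up to 0.0759 for Prc1 (without wild type library 2), 0.0966 for Ube2c (without ob/ob library 1), 0.0612 for Kif11 (without ob/ob library 1) and 0.0892 for Ckap2l (without wild type library 2).

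Over windows of 300 bases, 250 before and 50 after the start, TTTGAA on either strand was present in 32 of the 44 G2 and mitosis genes with a RefSeq promoter (72.7%), and in 19 of the 26 that rose. The share was 14.6% of 9021 tested genes with a promoter and 20.2% of all 27025. It was present in 5 of 36 G1 and S phase genes (13.9%) and in 0 of the 7 of them that rose. CCAAT on either strand was present in 33 of 44 G2 and mitosis genes (75%) and 21 of 36 G1 and S phase genes (58.3%), against 42.8% of the tested genes. The motifs do not overlap one another in the sequences above. A match is a run of letters and does not show that a factor binds there in these cells.

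Among C-type lectins and related pattern receptors 7 of 32 tested genes rose (21.9%, against 5.12% of all loci), 2 fell (6.25%, against 2.78%) and 23 did not pass. The median log2 change was -0.040. The rises were led by activating receptors that signal through immunoreceptor adaptors. Clec4e, or Mincle, which binds mycobacterial glycolipid and ligands of dead cells (chr6:123281789-123289870), stood at 13.1, 9.51 and 11.5 FPKM against 1.82, 1.15, 1.81 and 1.35 FPKM and rose by 2.29 ± 0.14 (SE, adjusted p = 0.000279). Clec4d, its partner, stood at 19.9, 12.7 and 15.3 FPKM against 3.28, 2.78, 3.702 and 3.25 FPKM and rose by 1.98 ± 0.15 (SE, adjusted p = 0.000388). Clec5a, a receptor coupled to the adaptor DAP12, stood at 3.403, 3.54 and 4.45 FPKM against 1.06, 1.13, 1.07 and 0.552 FPKM and rose by 1.30 ± 0.14 (SE, adjusted p = 0.00187). Clec7a, or Dectin-1, the receptor for fungal glucan, stood at 212, 278 and 321 FPKM against 153, 118, 151 and 166 FPKM and rose by 0.87 ± 0.17 (SE, adjusted p = 0.02196). Clec4e, Clec4d and Clec5a rose with any 1 library left out, while the count of the list was 4 with ob/ob library 4 left out, and also 4 with libraries 1 and 3 left out together. Neutrophils also carry Clec4e and Clec4d, and the neutrophil sums are given above. Clec7a lost its call in 3 of the 7 fits with 1 library left out, with adjusted p up to 0.0673 for Clec7a (without ob/ob library 4).

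The lectins that fell were of the DC-SIGN family. Cd209f stood at 0.571, 1.86 and 3.33 FPKM against 8.46, 24.7, 14.7 and 18.8 FPKM and fell by 2.62 ± 0.42 (SE, adjusted p = 0.0103). Cd209b, or SIGN-R1, stood at 1.08, 0.714 and 1.34 FPKM against 1.68, 4.92, 3.42 and 3.51 FPKM and fell by 1.05 ± 0.26 (SE, adjusted p = 0.0484). Both were highest in wild type library 2 and lowest in wild type library 1 among the wild type libraries. The sinusoidal endothelial sum had its highest and lowest wild type values in the same 2 libraries. Within ob/ob that sum was 3617, 1619 and 3144 in libraries 1, 3 and 4. Cd209b was lowest in library 3, as was the sum, but Cd209f was lowest in library 1, where the sum was highest. The part of endothelial RNA in the falls of Cd209f and Cd209b was not tested. Cd209b lost its call in 6 of the 7 fits with 1 library left out, with adjusted p up to 0.116 for Cd209b (without wild type library 3).

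Among Fc receptors and immunoreceptor adaptors 3 of 30 rose (10%) and 2 fell (6.67%), against 5.12% and 2.78% of all loci. Trem1, an activating receptor of monocytes and neutrophils, stood at 3.98, 1.63 and 4.63 FPKM against 1.25, 0.4599, 0.897 and 0.598 FPKM and rose by 1.24 ± 0.28 (SE, adjusted p = 0.0367), with ob/ob library 3, where neutrophil markers were lowest in ob/ob, at the lowest level. Fcgrt, the neonatal Fc receptor that recycles IgG and albumin, fell in all 3 ob/ob libraries, to 203, 186 and 173 FPKM against 302, 349.8, 307 and 321 FPKM, a log2 change of -0.77 ± 0.09 (SE, adjusted p = 0.00257), and it passed with any 1 library left out. The number of rises was 0 without ob/ob library 1 or 4, 1 without wild type library 3 or 4 and 5 without wild type library 1. Trem1 lost its call in 5 of the 7 fits with 1 library left out, with adjusted p up to 0.112 for Trem1 (without ob/ob library 1).

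Identity genes of resident Kupffer cells were lower in part. Of 28 tested members none rose, 5 fell (17.9%, against 2.78% of all loci) and 23 did not pass, with a median log2 change of -0.25. The list as a whole was not lower in ob/ob library 3. Its median relative to the wild type mean was -0.41, 0.074 and -0.40 in ob/ob libraries 1, 3 and 4. In these libraries 1, 10 and 1 of the 28 members were above every wild type library, against 2078, 2685 and 2931 of all 11501 loci. Folr2, the folate receptor of resident macrophages, stood at 749, 856 and 623 FPKM against 1544, 1127, 1301 and 1247 FPKM and fell by 0.81 ± 0.15 (SE, adjusted p = 0.0184). Fcna, ficolin A, a lectin that starts complement on microbes and is made by Kupffer cells, stood at 846, 1030.1 and 599.9 FPKM against 1725, 1386, 1309 and 1505 FPKM and fell by 0.87 ± 0.19 (SE, adjusted p = 0.0352). Cdh5, VE-cadherin, an endothelial junction protein that mouse Kupffer cells also express, stood at 226, 204 and 203 FPKM against 313, 325, 285 and 279 FPKM and fell by 0.51 ± 0.09 (SE, adjusted p = 0.0158). The other 2 were Ccl24 and Cd209f. The genotypes did not overlap in these 5 genes. Leaving out ob/ob library 1, 3 or 4 gave 2, 7 or 1 falls, leaving out wild type library 2, 3 or 4 gave 3, 2 or 2, leaving out ob/ob libraries 1 and 3 together gave 1, and median-ratio scaling gave 3. Folr2, Fcna and Cdh5 lost their calls in some of the fits with 1 library left out, with adjusted p up to 0.0627 for Folr2 (without ob/ob library 1), 0.0888 for Fcna (without ob/ob library 1) and 0.0581 for Cdh5 (without ob/ob library 4).

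Most defining markers did not pass. Timd4, a receptor for phosphatidylserine found on long-lived Kupffer cells, stood at 273, 370.2 and 235 FPKM against 461, 318, 357 and 373 FPKM, a log2 change of -0.38 ± 0.18 (SE, adjusted p = 0.225). Vsig4, the complement receptor that clears bacteria from blood, stood at 774, 1143 and 754 FPKM against 1089, 821, 783 and 1001 FPKM, a log2 change of -0.07 ± 0.19 (SE, adjusted p = 0.852). Marco, a scavenger receptor for bacteria, was the most variable, with 166, 156 and 81.6 FPKM against 365, 76.7, 136 and 119 FPKM and a log2 change of -0.18 ± 0.51 (SE, adjusted p = 0.849). The genotypes overlapped in all 3. The general macrophage genes Csf1r, the receptor for CSF1, and Adgre1, which encodes F4/80, were at log2 changes of -0.08 ± 0.17 (SE, adjusted p = 0.797) and 0.08 ± 0.18 (SE, adjusted p = 0.807).

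The macrophage transcription factor list had 51 tested members, with 3 rises (5.88%), 4 falls (7.84%) and 44 members without a call. Over all loci 5.12% rose and 2.78% fell, so the share of rises here was near that of all loci. Egr2, a zinc finger factor induced by activation and needed for alternative activation, stood at 47.1, 52 and 75.3 FPKM against 25.1, 23.8, 31.9 and 25.9 FPKM and rose by 1.07 ± 0.17 (SE, adjusted p = 0.0108). Bhlhe40, a factor that supports macrophage proliferation, stood at 76.8, 63.01 and 89.2 FPKM against 38.01, 30.9, 40.3 and 40.1 FPKM and rose by 1.01 ± 0.14 (SE, adjusted p = 0.00576). Pparg, the fatty acid-sensing nuclear receptor, stood at 10.1, 13.6 and 12.9 FPKM against 6.46, 6.47, 8.22 and 6.57 FPKM and rose by 0.73 ± 0.13 (SE, adjusted p = 0.0143). Egr2 and Bhlhe40 passed with any 1 library left out. Without ob/ob libraries 1 and 3 their log2 changes were 1.47 and 1.24, as library 4, the highest in ob/ob for both, remained. Pparg lost its call in 1 of the 7 fits with 1 library left out, with adjusted p up to 0.0524 for Pparg (without ob/ob library 4).

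The factors that fell were Maf, Klf4, Stat6 and Smad7, each by less than the rises. Maf, a factor that restrains macrophage self-renewal and is also high in sinusoidal endothelium, stood at 50.1, 60.8 and 56.4 FPKM against 76.4, 95.01, 80.3 and 77.7 FPKM and fell by 0.55 ± 0.11 (SE, adjusted p = 0.0209). Klf4, a factor of monocyte differentiation, stood at 41.2, 36.96 and 35.8 FPKM against 48.5, 53.4, 53.5 and 53.9 FPKM and fell by 0.45 ± 0.08 (SE, adjusted p = 0.0156). Stat6, which transmits interleukin 4 and 13 signals, stood at 73.3, 80.98 and 72.2 FPKM against 104, 95.6, 93.1 and 91.6 FPKM and fell by 0.34 ± 0.08 (SE, adjusted p = 0.0405). None of the 4 falls passed when wild type library 4, or ob/ob libraries 1 and 3 together, were left out. With ob/ob library 1 or 4 or wild type library 3 left out 1 passed, and 2 did with wild type library 1 left out or after median-ratio scaling. The factors tied to Kupffer cell identity did not pass. Nr1h3, which encodes LXR alpha and is read with Gm13783, was at -0.36 ± 0.17 (SE, adjusted p = 0.212), Id3 at -0.21 ± 0.09 (SE, adjusted p = 0.178) and Spic at -0.19 ± 0.16 (SE, adjusted p = 0.461). Maf, Klf4 and Stat6 lost their calls in some of the fits with 1 library left out, with adjusted p up to 0.0719 for Maf (without ob/ob library 1), 0.0564 for Klf4 (without ob/ob library 4) and 0.116 for Stat6 (without ob/ob library 4).

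Among genes for the uptake of dying cells both bridging ligands of the TAM receptors fell. Among 33 efferocytosis and scavenger receptor genes 3 rose (9.09%, against 5.12% of all loci), 4 fell (12.1%, against 2.78%) and 26 did not pass. Gas6, which links phosphatidylserine on dying cells to the TAM receptors (chr8:13465374-13494490), stood at 28.3, 16.1 and 22.6 FPKM against 37.3, 65.8, 53.9 and 43.7 FPKM and fell by 1.14 ± 0.23 (SE, adjusted p = 0.0282). Pros1, protein S, the other TAM ligand, stood at 58.8, 44.1 and 53.2 FPKM against 78.9, 101, 79.5 and 84.2 FPKM and fell by 0.71 ± 0.13 (SE, adjusted p = 0.0167). The TAM receptors Mertk and Axl did not pass, at 115, 139 and 127 FPKM against 151, 129.9, 133 and 143 FPKM for Mertk, a log2 change of -0.13 ± 0.09 (SE, adjusted p = 0.419). Axl stood at 527, 691 and 549 FPKM against 683, 572, 613 and 657 FPKM, a log2 change of -0.11 ± 0.12 (SE, adjusted p = 0.611). Gas6 and Pros1 were highest in wild type library 2 and lowest in ob/ob library 3, as was the sinusoidal endothelial sum. The other 2 genes that fell, Stab2 and Scarf1, are known from endothelium. The part of endothelial RNA in these falls was not tested. Gas6 lost its call in 5 of the 7 fits with 1 library left out, with adjusted p up to 0.0795 for Gas6 (without wild type library 3).

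The receptors that rose were Cd300lb, Colec12 and Trem2. Cd300lb, an activating receptor that binds phosphatidylserine, stood at 37.2, 44.01 and 45.04 FPKM against 22.3, 15.5, 20.5 and 18.6 FPKM and rose by 1.10 ± 0.13 (SE, adjusted p = 0.00265). Colec12, a collectin with scavenger function, stood at 9.91, 8.29 and 10.6 FPKM against 4.61, 5.12, 3.69 and 4.92 FPKM and rose by 0.93 ± 0.12 (SE, adjusted p = 0.00449). In both the genotypes did not overlap and the change passed with any 1 library left out. The number of falls in the list was 2 without ob/ob library 4 and without wild type library 2, 3 or 4, and 0 without ob/ob libraries 1 and 3 together.

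**Figure D4:**
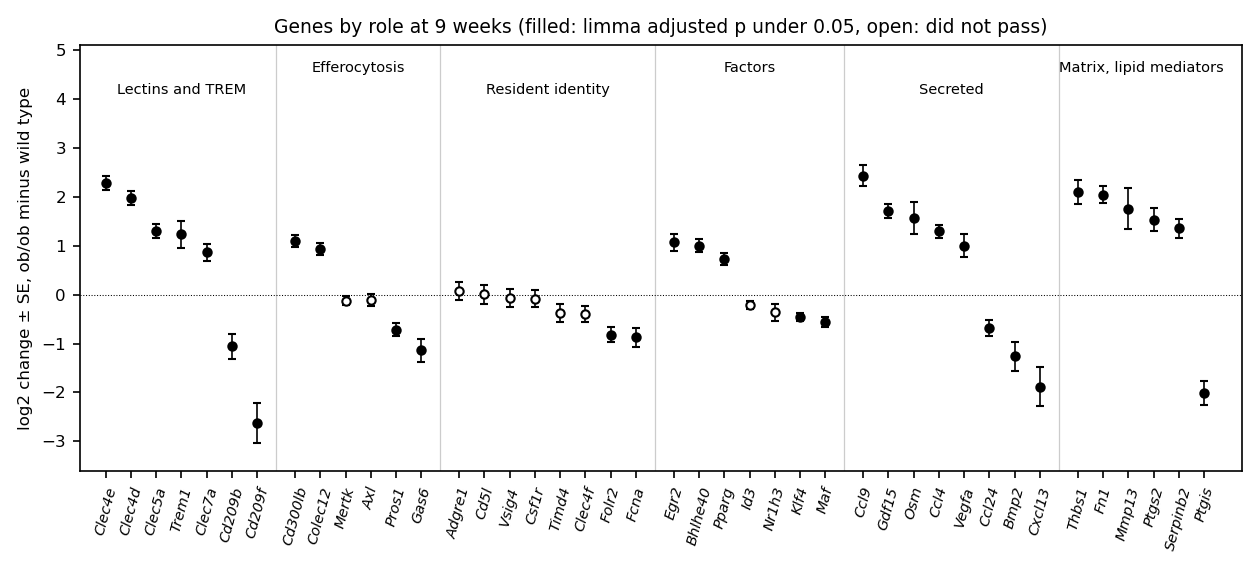
log2 change with its SE, ob/ob minus wild type, for genes grouped by role, with filled points where limma's adjusted p was below 0.05 and open points where it was not. Clec4e, Cd300lb, Egr2, Ccl9 and Thbs1 lead the rises of their groups, while the TAM ligands Gas6 and Pros1 lie below 0 with the receptors Mertk and Axl open and near 0.

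Innate sensors changed little. Of 38 Toll-like receptor and signalling genes 1 fell and none rose, and of 31 inflammasome and cytosolic sensor genes 1 rose and 1 fell, both lists being below the share over all loci for rises. Rela, the NF-kappaB p65 subunit, stood at 43.97, 45.2 and 46.1 FPKM against 55.1, 61.9, 61.3 and 53.1 FPKM and fell by 0.35 ± 0.08 (SE, adjusted p = 0.0389), a call also lost under median-ratio scaling. Nod1, a sensor of bacterial peptidoglycan, stood at 57.6, 54.2 and 53.7 FPKM against 81.7, 83.3, 79.7 and 74.1 FPKM and fell by 0.52 ± 0.07 (SE, adjusted p = 0.00522). Tlr4, the receptor for lipopolysaccharide, stood at 38.6, 42.6 and 35.1 FPKM against 45.6, 44.1, 37.9 and 51.1 FPKM, a log2 change of -0.20 ± 0.12 (SE, adjusted p = 0.309). Tlr7, the receptor for single-stranded RNA, stood at 183, 309.8 and 114 FPKM against 130.4, 106, 124 and 135 FPKM, a log2 change of 0.59 ± 0.30 (SE, adjusted p = 0.2398), and was above the wild type libraries in ob/ob libraries 1 and 3, as were most of its chromosomal neighbours. Its change was -0.11 (adjusted p = 0.7699) without those 2 libraries. Il1rn, the antagonist of the interleukin 1 receptor, which hepatocytes also make, stood at 149, 127 and 100.1 FPKM against 44.3, 29.01, 38.02 and 36.2 FPKM, followed the order of Alb and rose by 1.73 ± 0.17 (SE, adjusted p = 0.00118). Rela lost its call in 7 of the 7 fits with 1 library left out, with adjusted p up to 0.109 for Rela (without ob/ob library 1).

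Of 33 complement genes 10 rose (30.3%, against 5.12% of all loci) and 3 fell (9.09%, against 2.78%). Within ob/ob 6 of the 10 rises followed the order of Alb, against 34.5% of all loci that rose. C8g, a subunit of the membrane attack complex made by hepatocytes, stood at 38.1, 27.7 and 16.3 FPKM against 3.904, 2.39, 6.22 and 2.74 FPKM and rose by 2.55 ± 0.33 (SE, adjusted p = 0.00422). Mbl2, a mannose-binding lectin of plasma, also a hepatocyte product, stood at 7.53, 8.42 and 6.36 FPKM against 0.802, 0.513, 0.942 and 0.381 FPKM and rose by 2.35 ± 0.15 (SE, adjusted p = 0.000282). None of the 10 rises kept at least 50% of its change with log2 Alb as a covariate. The change was then -2.82 ± 0.97 for C8g and 0.78 ± 0.83 for Mbl2 (SE). That fit called no locus, so a share not kept does not show that a change follows Alb. Without ob/ob libraries 1 and 3 together 6 complement genes rose. The falls were Fcna, C5ar2 and Cd55, and 0 or 1 passed without ob/ob library 1, ob/ob library 4 or any 1 wild type library and under median-ratio scaling.

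Cytokine and growth factor genes rose in 4 of 29 tested (13.8%, against 5.12% of all loci) and fell in 1 (3.45%, against 2.78%). In the 4 rises ob/ob library 4 was the highest, as it was in 32.1% of all loci that rose. Gdf15, a stress-induced hormone of the TGF-beta family, stood at 43.8, 48.2 and 64.6 FPKM against 16.1, 12.8, 16.1 and 15.4 FPKM and rose by 1.71 ± 0.14 (SE, adjusted p = 0.000595). Osm, oncostatin M, a cytokine of activated myeloid cells, stood at 7.57, 2.97 and 10.6 FPKM against 1.45, 1.32, 1.83 and 1.34 FPKM and rose by 1.57 ± 0.33 (SE, adjusted p = 0.0294). Vegfa, the vascular growth factor, stood at 3.98, 2.299 and 5.98 FPKM against 1.48, 1.38, 1.21 and 1.61 FPKM and rose by 1.01 ± 0.23 (SE, adjusted p = 0.0395). Tnfsf9, the ligand of 4-1BB, stood at 3.05, 2.26 and 3.09 FPKM against 1.102, 0.969, 1.31 and 1.06 FPKM and rose by 0.84 ± 0.12 (SE, adjusted p = 0.00522). Gdf15 and Tnfsf9 passed with any 1 library left out, and Osm and Vegfa in 1 of the 7 such fits each, so 2 rises remained with any 1 library other than ob/ob library 3 left out. Bmp2, an endothelial signal to hepatocytes that sets iron balance, stood at 43.9, 18.8 and 38.4 FPKM against 57.8, 98.8, 73.8 and 83.8 FPKM and fell by 1.26 ± 0.30 (SE, adjusted p = 0.0442), and it is also on the endothelial list. Osm, Vegfa and Bmp2 lost their calls in some of the fits with 1 library left out, with adjusted p up to 0.0959 for Osm (without ob/ob library 1), 0.107 for Vegfa (without ob/ob library 1) and 0.104 for Bmp2 (without wild type library 2).

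Receptors for cytokines changed in 3 of 40 genes, 2 rising (5%) and 1 falling (2.5%), near the 5.12% and 2.78% of all loci. Il1r2, a decoy for interleukin 1 on neutrophils and macrophages, stood at 3.1, 1.32 and 3.96 FPKM against 0.837, 0.4403, 0.986 and 0.754 FPKM and rose by 1.05 ± 0.25 (SE, adjusted p = 0.0474), with its lowest ob/ob level in library 3. Il1rap, the accessory chain of the interleukin 1 receptor, stood at 5.59, 4.904 and 4.35 FPKM against 2.73, 2.18, 2.91 and 2.74 FPKM, in the order of Alb, and rose by 0.71 ± 0.11 (SE, adjusted p = 0.00964). Tgfbr2 was the gene that fell. With any 1 library other than ob/ob library 3 left out, 1 gene of the list rose. Cntfr, the receptor chain for ciliary neurotrophic factor, one of the largest falls over all loci, stood at 4.92, 2.12 and 4.11 FPKM against 8.22, 19.1, 12.4 and 12.5 FPKM and fell by 1.57 ± 0.30 (SE, adjusted p = 0.0204). Il1r2 and Cntfr lost their calls in some of the fits with 1 library left out, with adjusted p up to 0.1299 for Il1r2 (without ob/ob library 1) and 0.0614 for Cntfr (without wild type library 3).

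Matrix proteases, their inhibitors and matrix proteins rose in 11 of 31 tested genes (35.5%, against 5.12% of all loci) and fell in 1 (3.23%, against 2.78%). The median log2 change was 0.23. After Mmp12 the largest rise was in Thbs1, thrombospondin 1, an activator of latent TGF-beta, which stood at 13.6, 9.01 and 20.8 FPKM against 2.74, 2.25, 2.903 and 1.92 FPKM and rose by 2.10 ± 0.25 (SE, adjusted p = 0.00243). Mmp13, a collagenase of macrophages in resolving liver scars, stood at 6.92, 6.49 and 23.1 FPKM against 1.33, 2.79, 2.23 and 3.27 FPKM and rose by 1.76 ± 0.42 (SE, adjusted p = 0.04497). Serpinb2, an inhibitor of plasminogen activators read with Serpinb10, stood at 6.24, 3.15 and 5.71 FPKM against 1.25, 1.28, 1.13 and 1.497 FPKM and rose by 1.36 ± 0.19 (SE, adjusted p = 0.00592). In 7 of the 11 rises ob/ob library 4 was the highest ob/ob library and none followed the order of Alb, against 32.1% and 34.5% of all loci that rose. The count was 8 or more with any 1 library left out and 11 without ob/ob libraries 1 and 3 together. The gene that fell was Timp2. Mmp13 lost its call in 5 of the 7 fits with 1 library left out, with adjusted p up to 0.109 for Mmp13 (without wild type library 3).

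Of 33 integrin and adhesion genes 7 rose (21.2%, against 5.12% of all loci) and 1, Cdh5, fell (3.03%, against 2.78%). Selp, P-selectin, the adhesion molecule of platelets and endothelium, stood at 16.96, 9.298 and 21.95 FPKM against 1.99, 0.767, 2.87 and 1.38 FPKM and rose by 2.62 ± 0.33 (SE, adjusted p = 0.00363). The 4 tested platelet markers include Selp, and the other 3 did not pass. Alcam, a cell adhesion molecule that pairs with CD6, stood at 4.55, 4.33 and 5.91 FPKM against 1.31, 1.34, 1.67 and 1.41 FPKM and rose by 1.28 ± 0.12 (SE, adjusted p = 0.000786). Sdc1, syndecan 1, a heparan sulfate proteoglycan that hepatocytes use to bind lipoprotein remnants, stood at 8.38, 5.76 and 6.98 FPKM against 1.75, 2.799, 2.49 and 2.23 FPKM and rose by 1.27 ± 0.15 (SE, adjusted p = 0.00243). In all 3 the genotypes did not overlap, and each passed with any 1 library left out. The count of the list was 4 without ob/ob library 1 or 4. Among tetraspanins and MS4A proteins 3 of 23 rose, Cd9, Cd63 and Ms4a4a, and 1 fell, Tspan3. Ms4a4a stood at 20.8, 11.4 and 26.6 FPKM against 5.96, 3.201, 3.42 and 3.94 FPKM and rose by 1.96 ± 0.29 (SE, adjusted p = 0.00737).

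Enzymes and receptors of lipid mediators rose in 6 of 27 tested genes (22.2%, against 5.12% of all loci) and fell in 1 (3.70%, against 2.78%). Ptgs2, the inducible prostaglandin synthase COX-2, stood at 8.37, 5.56 and 12.3 FPKM against 2.303, 1.701, 2.76 and 2.23 FPKM and rose by 1.53 ± 0.23 (SE, adjusted p = 0.00825). Ptgis, prostacyclin synthase, an enzyme of endothelium and other cells, stood at 3.47, 6.897 and 5.55 FPKM against 25.4, 17.2, 22.5 and 32.2 FPKM and fell by 2.01 ± 0.25 (SE, adjusted p = 0.00295). Ptger4, a receptor for prostaglandin E2, stood at 8.098, 9.203 and 8.93 FPKM against 6.49, 2.99, 4.49 and 3.05 FPKM and rose by 0.94 ± 0.22 (SE, adjusted p = 0.0422). Ptgs2 and Ptgis passed with any 1 library left out. Their log2 changes were 2.04 and -1.92 with ob/ob libraries 1 and 3 both left out. Without ob/ob libraries 1 and 3 together 3 genes of the list rose. Ptgis was lower in each ob/ob library than in any wild type library. Within ob/ob Ptgis was lowest in library 1 and the endothelial sum in library 3. The part of endothelial RNA in the fall of Ptgis was not tested. Ptger4 lost its call in 6 of the 7 fits with 1 library left out, with adjusted p up to 0.108 for Ptger4 (without ob/ob library 4).

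Lysosomal genes gave few calls. Of 61 hydrolases and membrane proteins 4 rose and none fell, with a median of -0.040, near the share over all loci. The 4 were Gpnmb, Cd63, Gm2a and Psap. Gm2a, the activator protein for ganglioside breakdown, stood at 109, 124 and 124 FPKM against 81.5, 67.4, 81.3 and 81.3 FPKM and rose by 0.61 ± 0.10 (SE, adjusted p = 0.0105). Psap, the precursor of the saposins, which present sphingolipids to hydrolases, stood at 2233, 2530.4 and 2561 FPKM against 1763, 1585, 1742 and 1918 FPKM and rose by 0.48 ± 0.11 (SE, adjusted p = 0.0423). Without ob/ob libraries 1 and 3 together 2 genes of the list rose. Of 20 subunits of the vacuolar proton pump Atp6v0d2 rose (5%, against 5.12% of all loci) and the other 19 did not pass. The CACGTG box, part of the element bound by TFEB, was on either strand in 15 of 49 lysosomal promoters (30.6%) and 4 of 14 pump promoters (28.6%), against 11.9% of tested genes. The full 10-letter TFEB element, of which this box is the core, was in 1 of 49 lysosomal promoters (2.04%) and 0 of 14 pump promoters, against 0.854% of tested genes. Psap lost its call in 7 of the 7 fits with 1 library left out, with adjusted p up to 0.113 for Psap (without ob/ob library 4).

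Fatty acid and cholesterol genes rose with no fall. Of 29 LXR and cholesterol genes 6 rose (20.7%, against 5.12% of all loci) and none fell. Of 45 fatty acid genes 14 rose (31.1%) and none fell, 10 of those in the order of Alb, against 34.5% of all loci that rose. Scd1, the stearoyl-CoA desaturase, an LXR target high in fatty hepatocytes, stood at 250.4, 247 and 149.9 FPKM against 20.6, 14.3, 14.96 and 12.3 FPKM, in the order of Alb, and rose by 3.70 ± 0.22 (SE, adjusted p = 0.000279). Dgat2, the last enzyme of triglyceride synthesis, stood at 14.1, 10.8 and 6.43 FPKM against 2.15, 1.45, 1.77 and 1.29 FPKM, also in the order of Alb, and rose by 2.05 ± 0.24 (SE, adjusted p = 0.00219). Ch25h, the cholesterol 25-hydroxylase of activated macrophages, had its lowest ob/ob value in library 3 and its highest in library 4, with 7.16, 3.05 and 10.4 FPKM against 0.676, 1.14, 1.64 and 0.831 FPKM, and rose by 1.82 ± 0.34 (SE, adjusted p = 0.0186). Without ob/ob libraries 1 and 3 together 3 of the cholesterol genes and 7 of the fatty acid genes rose, and the cholesterol count was also 3 without ob/ob library 1 or wild type library 3, but leaving out wild type library 4 gave 2. Ch25h lost its call in 2 of the 7 fits with 1 library left out, with adjusted p up to 0.0711 for Ch25h (without ob/ob library 1).

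Of 35 NRF2 pathway genes 5 rose (14.3%, against 5.12% of all loci) and none fell. They were Slc7a11, Me1, Gsta3, Gstm3 and Mgst1, all with less than 50% of their change kept once log2 Alb was a covariate. Such a share is uncertain, as the change of Slc7a11 was then 0.58 ± 1.03 (SE). Of these Slc7a11, the cystine transporter, stood at 2.84, 1.83 and 2.65 FPKM against 0.332, 0.146, 0.496 and 0.117 FPKM and rose by 1.43 ± 0.16 (SE, adjusted p = 0.00173), and Nfe2l2 itself was at 105, 119 and 117 FPKM against 133, 106, 111 and 107 FPKM, a log2 change of -0.0037 (adjusted p = 0.986). In the type I interferon list 38 of 39 changes were below 0, with a median of -0.26, and 2 genes fell (5.13%, against 2.78% of all loci). Its median relative to the wild type mean was -0.71, -0.28 and 0.067 in ob/ob libraries 1, 3 and 4, so the libraries of 1 genotype were far apart. Without ob/ob libraries 1 and 3 together the median log2 change was 0.067 and none fell by limma, and 4 fell without ob/ob library 4 and 0 without wild type library 1, 3 or 4. Ifi27l2a, an interferon-induced mitochondrial protein, stood at 624, 1003 and 954 FPKM against 1760.4, 1169, 1639 and 1663 FPKM and fell by 0.87 ± 0.21 (SE, adjusted p = 0.0476), and Oas2, a sensor of double-stranded RNA, stood at 34.5, 53.8 and 56.1 FPKM against 85.9, 70.6, 76.9 and 80.3 FPKM and fell by 0.72 ± 0.17 (SE, adjusted p = 0.0432). Of 24 genes of MHC class II and antigen presentation none passed by limma, with 5 below an unadjusted p of 0.05 and a median of -0.090. The smallest p was that of the locus of Nlrc5, the transactivator of MHC class I, with 19.3, 22.04 and 18.7 FPKM against 23.99, 26.3, 35.7 and 32.6 FPKM and a log2 change of -0.53 ± 0.14 (SE, adjusted p = 0.0641). Ifi27l2a and Oas2 lost their calls in some of the fits with 1 library left out, with adjusted p up to 0.117 for Ifi27l2a (without wild type library 3) and 0.101 for Oas2 (without wild type library 3).

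Of 32 iron and heme genes 4 rose, Hp, Hpx, Cp and Hamp, and none fell, and 1 rose without ob/ob libraries 1 and 3 together. Hp, haptoglobin, which binds free haemoglobin, stood at 37.4, 28.4 and 28.3 FPKM against 7.93, 1.65, 3.39 and 3.25 FPKM and rose by 2.81 ± 0.36 (SE, adjusted p = 0.00387). All 4, 12.5% of the list against 5.12% of all loci, encode plasma proteins that hepatocytes make. Of 28 genes of glycolysis and lactate 6 rose (21.4%, against 5.12% of all loci). Only 1 or 2 did without ob/ob library 1, ob/ob library 4, or wild type library 2, 3 or 4. Pkm, pyruvate kinase of non-hepatocyte cells, read with AC160637.1, stood at 265, 208 and 219 FPKM against 171, 153, 149 and 144 FPKM and rose by 0.58 ± 0.11 (SE, adjusted p = 0.0204). Of 22 alternative activation genes 5 rose (22.7%, against 5.12% of all loci), Arg1, Chil3, Clec7a, Ear2 and Il1rn, and Ccl24 fell (4.55%, against 2.78%). Of the 5 rises 4 were in the order of Alb, against 34.5% of all loci that rose. Of 11 genes of NADPH oxidase and nitric oxide Arg1 and Ass1 rose (18.2%), both in the order of Alb, and none fell. The alternative activation count was 3 without ob/ob library 1 or 3 or wild type library 4, 3 without ob/ob libraries 1 and 3 together and 2 without wild type library 3. Pkm lost its call in 5 of the 7 fits with 1 library left out, with adjusted p up to 0.0642 for Pkm (without wild type library 3).

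**Figure D5:**
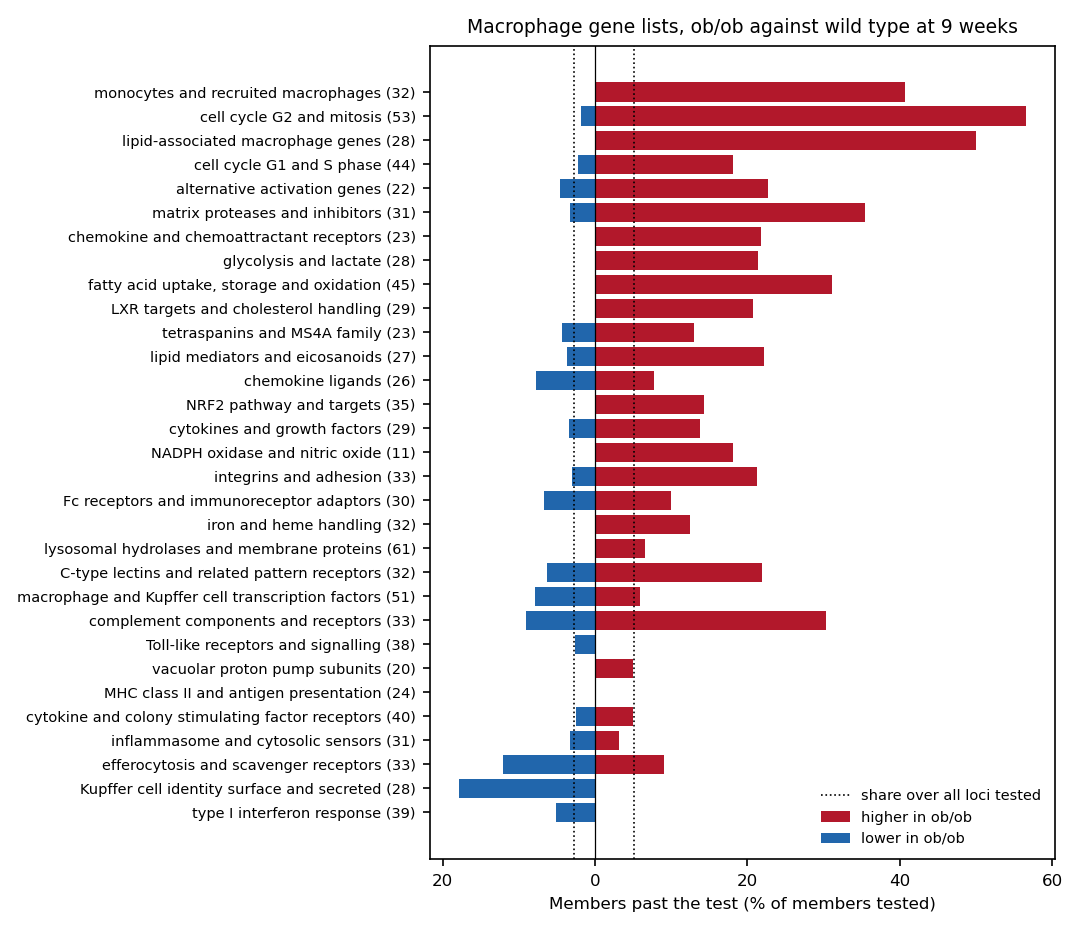
Share of the tested members of 31 macrophage gene lists that passed the limma test, in percent of members tested (number in brackets), with falls to the left, rises to the right and dotted lines at 2.78% and 5.12%, the shares over all loci. Lists are ordered by median log2 change, with monocyte, G2 and mitosis and lipid-associated macrophage genes at the top and the interferon response at the bottom.

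Over all loci, 268 of the 589 rises and 211 of the 320 falls kept at least 50% of their change with log2 Alb as a covariate. That fit called 0 of 11501 loci, and the median SE of a change in it was 0.745. Chil3, counted as kept, was there at 3.15 ± 4.79 and Hp at 2.16 ± 2.53 (SE). A kept share therefore does not show that a change is independent of Alb, and a share not kept does not show that it follows Alb. The largest rise that kept this share was in Apoa4, an apolipoprotein of intestine and of fatty liver. It stood at 99.8, 123 and 79.4 FPKM against 0.284, 0.186, 0.271 and 0.217 FPKM, a log2 change of 6.34 ± 0.14 (SE, adjusted p = 1.7e-06). Among the 10 largest, besides Gpnmb, Mmp12, Scd1, Chil3 and Hp, was Slpi, a secreted inhibitor of neutrophil elastase read with Mir7678, with 33.4, 26.8 and 73.2 FPKM against 2.86, 5.46, 4.14 and 6.03 FPKM and a log2 change of 2.92 ± 0.35 (SE, adjusted p = 0.00273). Slpi was highest in ob/ob library 4, where Alb was lowest. Hsd11b1, which regenerates active glucocorticoid in hepatocytes and macrophages, stood at 17.2, 13.99 and 13.5 FPKM against 1.08, 1.53, 1.31 and 1.54 FPKM and rose by 2.75 ± 0.12 (SE, adjusted p = 6.3e-05). Its ob/ob values followed the order of Alb.

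The largest falls were led by Serpina1e, an antitrypsin gene with near-identical paralogs that make its level uncertain, with 0.0482, 0.166 and 0.0598 FPKM against 28.1, 17.2, 23.7 and 21.7 FPKM and a log2 change of -4.42 ± 0.15 (SE, adjusted p = 2.8e-05). It ran opposite to Alb although both are hepatocyte genes. Car11, a carbonic anhydrase-related protein, stood at 2.69, 3.25 and 0.626 FPKM against 7.003, 10.4, 11.7 and 16 FPKM and fell by 2.01 ± 0.37 (SE, adjusted p = 0.0184). Slc12a5, a potassium chloride cotransporter, stood at 2.82, 1.72 and 2.65 FPKM against 5.61, 10.6, 7.64 and 6.35 FPKM and fell by 1.31 ± 0.21 (SE, adjusted p = 0.0107). Tspan18, a tetraspanin of endothelial cells, stood at 14.2, 6.08 and 12.02 FPKM against 19.1, 41.7, 26.8 and 24.4 FPKM and fell by 1.32 ± 0.32 (SE, adjusted p = 0.0479), and Cpne2, a copine, stood at 46.2, 29.1 and 43.8 FPKM against 68.5, 114, 85.1 and 77.1 FPKM and fell by 1.10 ± 0.21 (SE, adjusted p = 0.0217). Cntfr, Tspan18, Slc12a5 and Cpne2 were each highest in wild type library 2 and lowest in ob/ob library 3, the order ends of the endothelial sum. The part of endothelial RNA in these falls was not tested. Car11, Tspan18 and Cpne2 lost their calls in some of the fits with 1 library left out, with adjusted p up to 0.0585 for Car11 (without wild type library 3), 0.111 for Tspan18 (without wild type library 3) and 0.0638 for Cpne2 (without wild type library 3).

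In a fit of each locus on log2 Alb within genotypes 0 of 11500 loci passed (0%), with 399 below an unadjusted p of 0.05 (3.47%). Alb varied little within a genotype across these 7 libraries, so the fit can miss loci that follow Alb. The hepatocyte product C8g had a slope of 1.57 ± 0.28 (SE) and did not pass. The 0 therefore does not show that no locus follows Alb. Where the genotypes were compared by range alone, 9.55% of loci had every ob/ob library above every wild type library and 15.6% had every ob/ob library below. Of the lipid-associated list 16 of 28 members lay above and 2 below in this sense, and of the G2 and mitosis list 40 of 53 lay above and 1 below.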

How the data were processed

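RNA was extracted with TRIzol, made into TruSeq stranded mRNA libraries and sequenced on a HiSeq 3000, per the labels' protocols. Per the submitters' processing notes the build was mm10 and the tools were bcl2fastq, cutadapt, STAR and Cufflinks, with no versions given in the sources used here. The values the authors deposited are FPKM, 1 per locus and library, with no 0 among them, and columns were assigned by name, with 0 left over. No counts were used, so read depth is unknown and no interval from depth is given.

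log2(FPKM + 1) was fitted with limma 3.58.1 in R 4.3.3, with a variance trend and Benjamini-Hochberg adjustment, on the 7 libraries of 9 weeks without covariates. Tables and figures were made with Python 3.11.15, pandas 2.3.3, numpy 2.4.6 and matplotlib 3.10.9, and the steps were tested on simulated data. Loci with several symbols were tested as 1 locus. Of 1169 symbols on 43 gene lists 1118 were found. The comparison, the lists and the named genes were chosen with earlier results of these data known. The rule named, per macrophage list, up to 4 members that passed, did not overlap between genotypes and kept at least 50% of their change with log2(Alb + 1) as a covariate, by size, and up to 2 others that passed, or else the smallest p. It also named the 10 largest rises and falls over all loci of at least 5 FPKM under the same conditions, and 29 set genes. Of 145 genes so named 116 are described and the others are not, and 6 more are described that were chosen after their values were seen. Alternatives were a filter at 5 FPKM or none, a pseudocount of 0.1, median-ratio scaling, a joint fit with 14 weeks, a replicate block, Alb or the hepatocyte score as covariate, no variance trend, each library left out, and ob/ob libraries 1 and 3 left out together. Gene positions are from GENCODE M21 on GRCm38, the build called mm10.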

Additional observations from a re-analysis of the deposited data

Results flagged for a closer look

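In the wild type group of 4 libraries, 1 library stood apart from the other 3 by Dixon's test at 95% on log2(FPKM + 1) for 10 of the 122 genes described, where chance gives about 1 in 20. The values that stood apart in wild type library 2 were those of Ccnd1 (51.5 FPKM), Emb (2.26 FPKM), Fn1 (12.6 FPKM), Gm2a (67.4 FPKM) and Ly6c2 (8.54 FPKM). In wild type library 1 they were those of Klf4 (48.5 FPKM) and Pttg1 (59.0 FPKM), in wild type library 3 those of Cd63 (1.96 FPKM) and Pparg (8.22 FPKM), and in wild type library 4 that of Clec5a (0.552 FPKM). For Ccnd1, Fn1, Cd63 and Pparg the value was the highest of the 4, and for the others the lowest. The ob/ob group of 3 was too small for this test.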

How the results depend on the processing

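By limma 909 loci passed. The count was 528 with a filter at a mean of 5 FPKM, 1390 in the joint fit of both ages, 415 without ob/ob libraries 1 and 3 together, and 436 to 892 with 1 library left out. With the replicate block it was 269. The numbers do not pair the libraries in the labels, and the deviations of same-numbered libraries from their group means correlated at -0.187, -0.054 and 0.108 for numbers 1, 3 and 4. With Alb or the hepatocyte score as a covariate it was 0, with 342 and 600 loci below an unadjusted p of 0.05. It kept within 1.5 times the main count with the pseudocount of 0.1 (896), no filter (1235), median-ratio scaling (827) and no variance trend (909). The count of loci that passed in the fit on Alb within genotypes was 0 under each alternative run for it, with 271 to 493 below an unadjusted p of 0.05 when 1 library was left out. With so few libraries that fit can miss loci that follow Alb.

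Among the 102 described genes that passed, signs turned for 9, and for 0 of them under an alternative without a covariate. With Alb the log2 change was -2.82 for C8g, 0.80 for Cd209f, -0.44 for Dgat2, -0.48 for Il1rap, -0.24 for Lpl, -0.60 for Mgst1 and 0.55 for Oas2. With the hepatocyte score it was -0.68 for C8g, 0.22 for Cd209b, 0.88 for Cd209f, -0.058 for Dgat2, -0.077 for Il1rap, -0.18 for Lpl, 0.042 for Oas2 and 0.010 for Pttg1. Of the 20 described genes that did not pass, the sign turned for 11 under at least 1 alternative, and for 7 under one without a covariate. The cause was not tested. Of the 122 genes described, 69 lost their call under the replicate block, 33 without ob/ob libraries 1 and 3 together, and under median-ratio scaling 9 did (Bmp2, Ccl24, Ccnd1, Cd209b, Fcna, Ifi27l2a, Rela, Stat6 and Tspan18). Depth could not be used to set a limit for low genes.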
